A study of Mus musculus with 15 samples.

Results

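The Cyp4a genes encode cytochrome P450 enzymes that hydroxylate fatty acids at the omega carbon, the end of the chain opposite the carboxyl group. The 6 genes described here, Cyp4a10, Cyp4a12a, Cyp4a12b, Cyp4a14, Cyp4a31 and Cyp4a32, were taken by gene name from the liver and lung count tables, which list 54532 genes each. The tables hold 5 further Cyp4a entries, Cyp4a29, Cyp4a30b and 3 pseudogenes, and all of these had 0 reads in every library. RNA was sequenced from 9 livers and 6 lungs of wild-type C57BL/6J mice, an inbred laboratory strain. The CS group (4 livers, 3 lungs) ate a control diet, and the PS group (5 livers, 3 lungs) ate a diet with 2% phytosterols, plant sterols that resemble cholesterol. The labels give an age of 28 weeks for all mice, the age at purchase plus the feeding times in the study's methods comes to more, and the methods name male mice. Each library came from its own mouse within a tissue, and the 6 lungs came from 6 of the mice whose livers were sequenced: lungs CS 1, 2 and 3 share their mice with livers CS 1, 2 and 3, and lungs PS 1, 2 and 3 with livers PS 1, 3 and 5.

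Omega-hydroxylation is a side route of fatty acid breakdown. The hydroxylated acid is oxidized further to a dicarboxylic acid, which peroxisomes and mitochondria then shorten by beta-oxidation. Cyp4a10 and Cyp4a14 are textbook targets of PPARα, the nuclear receptor that is activated by fatty acids and fibrates and that switches on hepatic fatty acid oxidation in fasting. The Cyp4a12 enzymes are known as male-biased, androgen-dependent enzymes that convert arachidonic acid to 20-HETE, a vasoactive lipid. Less is known of Cyp4a31 and Cyp4a32.

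All 6 genes lie in 1 cluster on chromosome 4 of the mouse genome build GRCm38, from 115299046 to 115621602, a span of 322.6 kb. Cyp4a12a (ENSMUSG00000066071, 115299046 to 115332815) and Cyp4a12b (ENSMUSG00000078597, 115411624 to 115439034) stand at one end. Cyp4a14 (ENSMUSG00000028715, 115486200 to 115496142) follows on the minus strand, and it is the only member there. Cyp4a10 (ENSMUSG00000066072, 115518264 to 115533649), Cyp4a31 (ENSMUSG00000028712, 115563649 to 115579015) and Cyp4a32 (ENSMUSG00000063929, 115600969 to 115621602) form the other end. In the GENCODE annotation the only gene that overlapped a member was the pseudogene Gm12837, on the opposite strand of Cyp4a12b, and it shared 0 exonic bases with it.

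**Figure D1:**
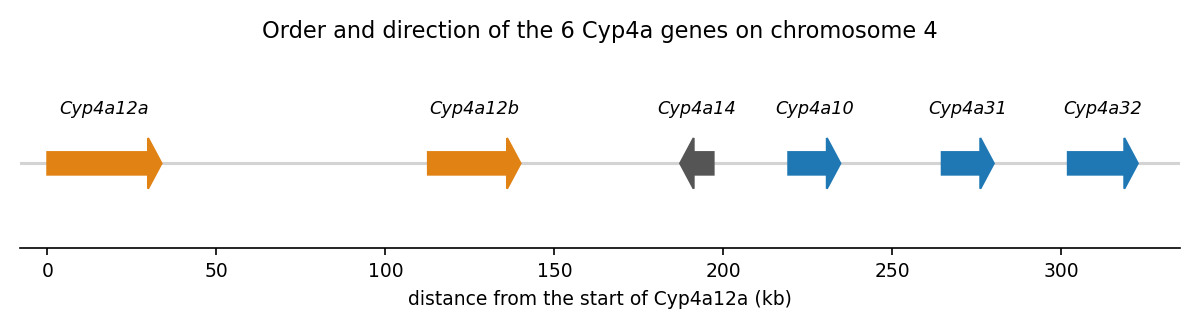
The 6 Cyp4a genes drawn to scale along chromosome 4, as distance in kb from the start of Cyp4a12a, with arrows in the direction of transcription. Orange and blue mark the sets of near-identical copies, and Cyp4a14 (grey) is the only gene that points to the left.

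The family holds near-identical copies, which matters for how reads were assigned. Over the whole coding sequence, Cyp4a10 was 97.2% identical to Cyp4a32 and 96.6% to Cyp4a31, and Cyp4a31 and Cyp4a32 were 96.0% identical. Cyp4a12a and Cyp4a12b were 98.5% identical, with 23 differing bases in 1527. Cyp4a14 stood apart, with 75.4% to 76.0% identity to each of the other members. Of all windows of 150 bases, the read length given in the study's methods, along the transcript with the longest coding sequence, 25.6% in Cyp4a12a and 25.9% in Cyp4a12b occurred unchanged in the other copy. That share was 4.3% in Cyp4a10, 4.2% in Cyp4a31 and 8.0% in Cyp4a32, and it was 0.0% in Cyp4a14. Reads from Cyp4a14 can therefore be told from those of the other members, while a part of the reads of the copies cannot be told apart on their own, so the values of Cyp4a31, Cyp4a32, Cyp4a12a and Cyp4a12b are uncertain and the sums over copies are given too.

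The coding stretches of 60 bases that hold the most differences within each set of copies show how little separates them. They are read 5′ to 3′ on the plus strand, and capitals mark the positions at which the copies differ. For Cyp4a10, Cyp4a31 and Cyp4a32 the stretch covers coding bases 202 to 261 in exon 2, at chr4:115519642-115519701, chr4:115565022-115565081 and chr4:115602272-115602331, and holds 9 of the 77 positions that differ among the 3 coding sequences.
Cyp4a10: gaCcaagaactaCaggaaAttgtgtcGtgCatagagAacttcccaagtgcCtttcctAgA
Cyp4a31: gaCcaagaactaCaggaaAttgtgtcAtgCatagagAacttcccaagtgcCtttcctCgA
Cyp4a32: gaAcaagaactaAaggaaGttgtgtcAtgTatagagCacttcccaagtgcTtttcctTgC
For Cyp4a12a and Cyp4a12b it covers coding bases 625 to 684 across the junction of exons 5 and 6, at chr4:115326310-115326682 and chr4:115432562-115432935, and holds 4 of their 23 differences.
Cyp4a12a: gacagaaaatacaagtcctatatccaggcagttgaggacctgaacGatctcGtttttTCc
Cyp4a12b: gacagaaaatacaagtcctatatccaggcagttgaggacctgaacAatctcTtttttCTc

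In the livers, the Cyp4a genes differed widely in level. On the deposited FPKM scale (reads scaled by gene length and library size), Cyp4a10 averaged 1420 ± 67.6 (SD, n = 4) in the CS group and held rank 46 among all 54532 genes. Cyp4a14 averaged 1279 ± 543 (SD, n = 4), at rank 50. Cyp4a12a followed at 103 ± 38.9 FPKM, Cyp4a12b at 55.7 ± 25.6, Cyp4a32 at 33.2 ± 12.1 and Cyp4a31 at 14.4 ± 5.61 (SD, n = 4 for each). Cyp4a10 and Cyp4a14 could not be ordered by level: Cyp4a10 was the higher of both in 3 of 4 CS livers and 4 of 5 PS livers, and their ranges overlapped in both groups. Cyp4a14 lay above Cyp4a12a in all 9 livers with no overlap of ranges in either group. Cyp4a12a lay above Cyp4a12b in each of the 9 livers, although the ranges across mice overlapped, and Cyp4a32 lay above Cyp4a31 in each as well. The order of Cyp4a32 and Cyp4a31 depends on annotated exon length, 1536 against 2509 bases. In raw counts Cyp4a32 was below Cyp4a31 in liver PS 3, at 330 against 367. Cyp4a12b was above Cyp4a32 in 4 of 4 CS livers and 4 of 5 PS livers. Together the 6 genes took 0.457% to 0.906% of all reads assigned to genes in the CS livers and 0.279% to 0.561% in the PS livers, out of 14410117 to 17625179 counts per library.

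The diets were compared gene by gene with edgeR's quasi-likelihood test, and liver calls were made at the study's unadjusted threshold of p at most 0.05. Of the 6 members, 3 were lower in the PS livers at that threshold (Cyp4a10, Cyp4a31 and Cyp4a32) and 0 were higher, whereas 3.58% of the 13195 genes tested were lower and 3.96% were higher. The 3 genes are the near-identical copies. After Benjamini-Hochberg adjustment over all genes, 0 members had an adjusted p under 0.05 in edgeR, and 0.00758% of the genes tested did. With DESeq2's Wald test Cyp4a10 alone passed the adjustment, among 0.263% of genes that did so in the lower direction. The levels below are CPM, counts scaled to a common library size by edgeR's TMM method.

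**Figure D2:**
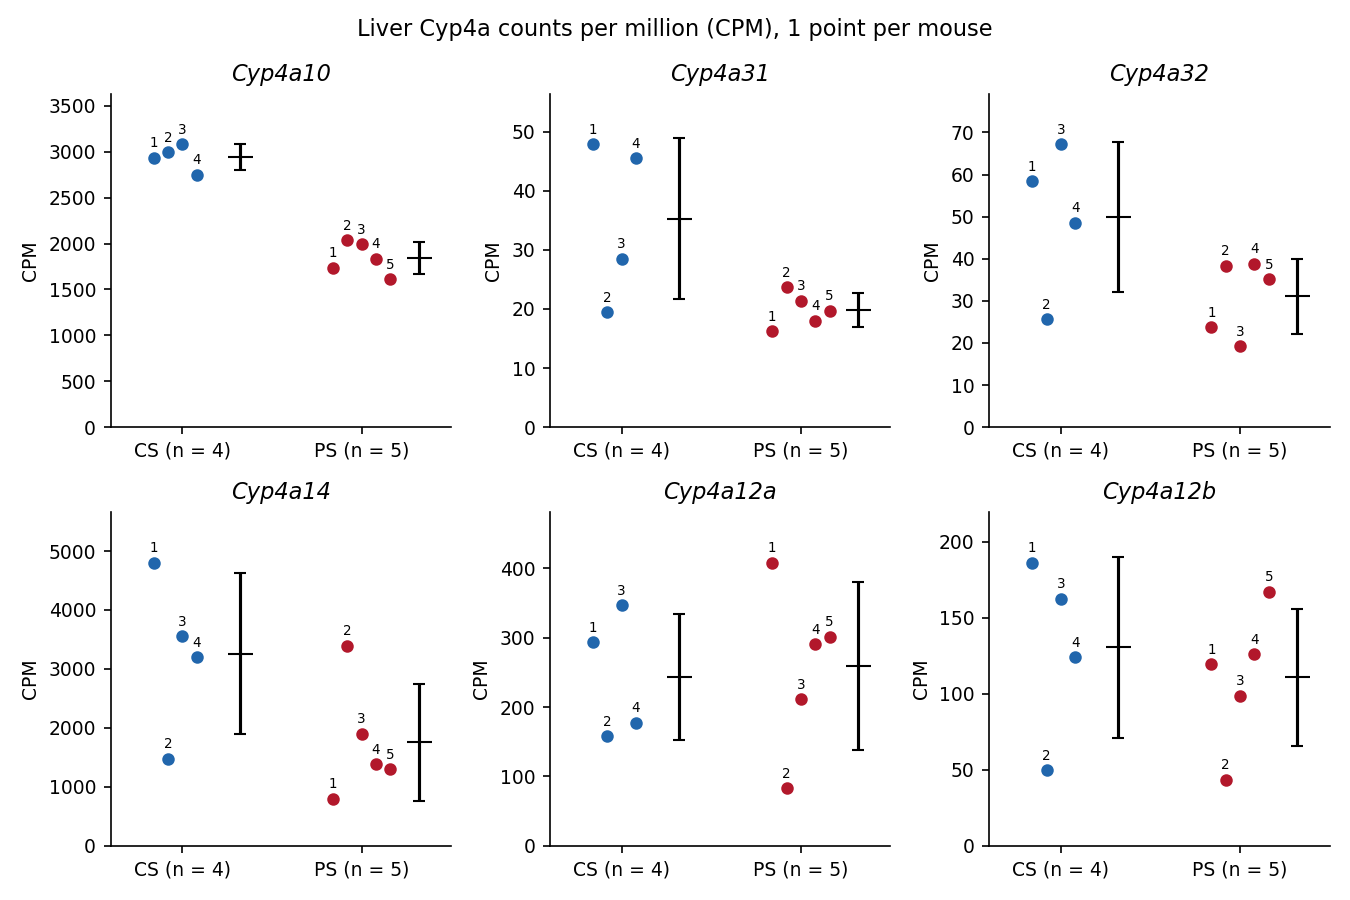
Liver levels of the 6 Cyp4a genes in CPM for each mouse, CS in blue and PS in red, with replicate numbers beside the points and black bars for the group mean ± SD; each panel has its own vertical axis from 0. The groups are separate only for Cyp4a10, and CS 2 is the lowest CS liver for the other 5 genes.

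Cyp4a10 was the most even member within each group. Its CPM was 2937, 2998, 3080 and 2748 in the 4 CS livers and 1737, 2039, 1990, 1836 and 1611 in the 5 PS livers. Every PS liver lay below every CS liver, a separation seen in 1.53% of genes tested. The group means were 2941 ± 141 (SD, n = 4) and 1843 ± 177 (SD, n = 5), a log2 fold change of -0.67 with a standard error of 0.16 and a 95% confidence interval from -1.03 to -0.32. The PS level was thus 62.7% of the CS level. The unadjusted p was 0.0015, and the adjusted p was 0.230 in edgeR and 0.000898 in DESeq2. A two-sided exact permutation test of log2(CPM + 1) over the mice gave p = 0.00794, the smallest that 4 against 5 mice can give. Across the 16 alternative fits the adjusted p of Cyp4a10 ranged from 0.000898 (DESeq2) to 1.00, while its unadjusted p stayed at most 0.0491.

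Cyp4a31 and Cyp4a32, the copies of Cyp4a10, were read at a small fraction of its level. Cyp4a31 had 47.8, 19.4, 28.5 and 45.5 CPM in the CS livers and 16.2, 23.7, 21.4, 18.0 and 19.7 CPM in the PS livers. The PS values were close together and overlapped only the low CS 2 liver. The log2 fold change was -0.83 (SE 0.26), with an unadjusted p of 0.00739 and an edgeR adjusted p of 0.404. Cyp4a32 had 58.4, 25.7, 67.2 and 48.5 CPM in the CS livers against 23.8, 38.4, 19.2, 38.8 and 35.1 CPM in the PS livers, again overlapping at CS 2. Its log2 fold change was -0.69 (SE 0.29), with an unadjusted p of 0.0389 and an edgeR adjusted p of 0.633. The call on Cyp4a32 held in 8 of 16 alternative fits and that on Cyp4a31 in 15 of 16. The exact permutation p was 0.0397 for Cyp4a31 and 0.103 for Cyp4a32.

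Summed over the 3 copies, the CS livers held 3026 ± 138 CPM (SD, n = 4), and the PS livers held 1894 ± 178 CPM (SD, n = 5). The sum does not depend on how reads were divided among the copies. Reads that fit several copies may still have been dropped or counted more than once. Cyp4a10 supplied 96.5% to 98.5% of this sum in each liver. The log2 fold change of the sum was -0.68 (SE 0.16), with an unadjusted p of 0.00144 and an edgeR adjusted p of 0.227, and no PS liver reached the lowest CS liver. The sum therefore mostly restates Cyp4a10.

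Cyp4a14 varied far more between mice than Cyp4a10, though its mean level was similar. Its CPM was 4799, 1478, 3559 and 3199 in the CS livers and 800.4, 3396, 1899, 1381 and 1301 in the PS livers. The groups overlapped through 2 mice, the low CS 2 and the high PS 2, and the other 3 CS livers lay above the other 4 PS livers. Mean levels of 3259 ± 1371 CPM (SD, n = 4) on the CS diet and 1755 ± 996 CPM (SD, n = 5) on the PS diet gave a log2 fold change of -0.89 (SE 0.42) with a 95% confidence interval from -1.80 to 0.02. At an unadjusted p of 0.0541 and an edgeR adjusted p of 0.672, Cyp4a14 did not pass either threshold in edgeR, and the exact permutation p was 0.0794. It did pass the unadjusted threshold in DESeq2, the tool of the study (log2 fold change -0.90, SE 0.41, unadjusted p of 0.0286, adjusted p of 0.498), which makes 4 of 6 members lower where 2.66% of all genes were, and in edgeR with no filter on low counts (unadjusted p of 0.0491). Without CS 2 its log2 fold change was -1.14 (unadjusted edgeR p across all genes, 0.0101), and without PS 2 it was -1.28 (0.00573), so the call on Cyp4a14 turned both on these livers and on the tool and filter. Without CS 2 the number of members lower at that threshold was 4 of 6, the added gene being Cyp4a14, while the share of all genes lower was 6.37%, and the adjusted p of Cyp4a31 in edgeR was 0.0489, against up to 1.00 in its other fits.

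The ratio of Cyp4a14 to Cyp4a10 showed the same spread from mouse to mouse. In FPKM it was 1.32, 0.400, 0.937 and 0.944 in the CS livers and 0.374, 1.35, 0.774, 0.610 and 0.655 in the PS livers. The groups covered almost the same range. The lowest value of the CS group belonged to CS 2 and the highest of the PS group to PS 2.

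Cyp4a12a and Cyp4a12b showed no difference between the diets that could be told from the spread between mice. Cyp4a12a had 293, 158, 347 and 178 CPM in the CS livers and 408, 82.6, 211, 291 and 302 CPM in the PS livers, and the PS range enclosed the CS range. The means of 244 ± 90.9 (SD, n = 4) and 259 ± 121 CPM (SD, n = 5) gave a log2 fold change of 0.09 (SE 0.40) with an interval from -0.78 to 0.96 (unadjusted p of 0.832, adjusted p of 0.991 in edgeR). Cyp4a12b had 186, 49.7, 162 and 124 CPM in the CS livers and 119, 43.4, 98.5, 126 and 167 CPM in the PS livers, with a log2 fold change of -0.24 (SE 0.40) and an interval from -1.12 to 0.65. For the sum of both copies the log2 fold change was -0.02 (SE 0.39) and the interval ran from -0.87 to 0.83, which leaves room for a change in either direction. The ratio of Cyp4a12a to Cyp4a12b in FPKM ran from 1.42 to 3.14 in the CS livers and from 1.79 to 3.38 in the PS livers. PS 2, which had the highest Cyp4a14 of its group, had the lowest level of both Cyp4a12 genes. The low Cyp4a12 livers of each group, CS 2 and PS 2, also had the lowest summed level of 7 other male-biased genes in their groups, at 3258 and 2364 CPM, and the highest of 10 female-biased genes, at 29.7 and 152 CPM. The female-biased sum was 44.8 CPM in PS 3 and 1.05 to 6.49 CPM in the other 6 livers. The part of this difference between livers in the Cyp4a values was not tested.

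**Figure D3:**
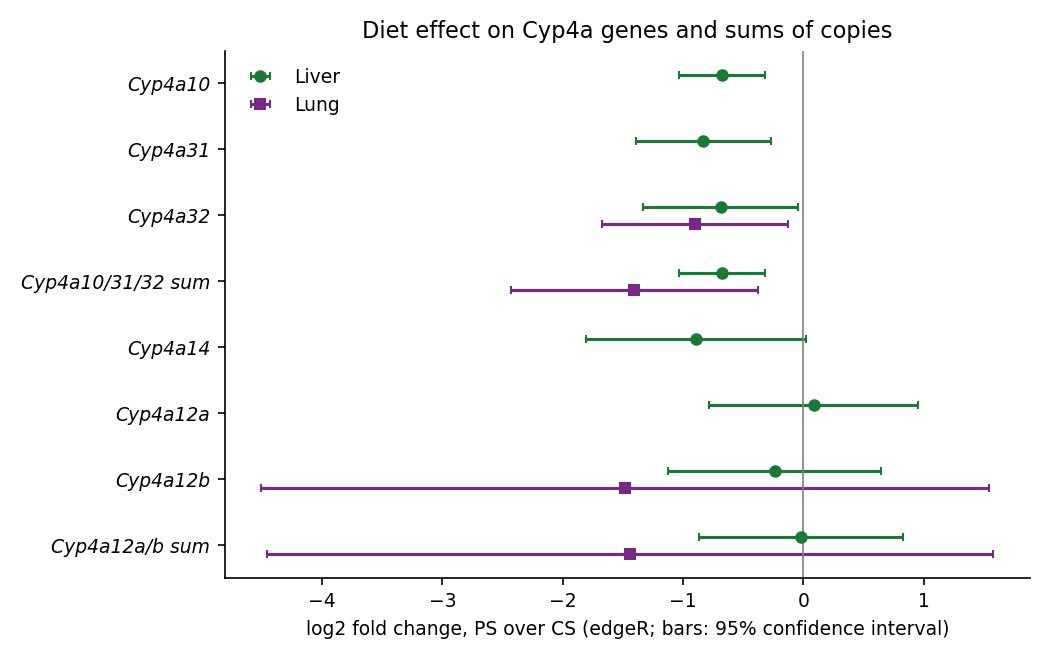
log2 fold changes, PS over CS, of the 6 Cyp4a genes and the sums of copies in the liver (green circles) and the lung (purple squares), with bars for the 95% confidence interval from edgeR; members that did not pass the filter in the lung have no lung point. The liver intervals of Cyp4a10, Cyp4a31, Cyp4a32 and their sum lie below 0, that of Cyp4a14 reaches 0.02, and those of the Cyp4a12 genes span 0.

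Other PPARα target genes were examined beside the family, from a list of 40 genes of which 39 were tested. In the PS livers 13 were lower at an unadjusted p of at most 0.05 and 0 were higher, and the median log2 fold change of the list was -0.40, against -0.03 over all genes. Among them were Pdk4, a kinase that shuts down pyruvate oxidation, with a log2 fold change of -2.20 (SE 0.53, unadjusted p of 0.00149 and adjusted p of 0.230 in edgeR), and Cidec, a lipid droplet protein, with -1.92 (SE 0.50). Fgf21, a fasting hormone, had -1.58 (SE 0.43), and Cpt2, which passes long-chain acyl groups into mitochondrial oxidation, had -0.53 (SE 0.16). None of the 39 had an adjusted p under 0.05 in edgeR. The count of lower targets depended on single livers, with 6 without CS 1, 8 without CS 3, CS 4, PS 1, PS 3 or PS 5, and 16 without CS 2 or without PS 2. The share of all genes lower, 3.58% over all 9 livers, was below that without CS 1 (2.45%), PS 1 (2.98%), PS 3 (2.54%) or PS 5 (3.14%), where fewer targets were lower, and above it without CS 2 (6.37%), where more were. It moved the other way from the count of targets without CS 3 (3.76%), CS 4 (3.93%) and PS 2 (3.40%). Without PS 4 the share was 3.63%, and the count of lower targets lay within 6 to 16.

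Pdk4 followed Cyp4a14 in part from liver to liver. Its CPM was 69.2, 8.83, 39.9 and 39.7 in the CS livers and 4.33, 14.7, 4.84, 12.9 and 5.84 in the PS livers, so CS 2 was again the low liver of its group and PS 2 the high one. Ehhadh, the bifunctional enzyme of peroxisomal beta-oxidation, had 2416, 132, 819 and 1154 CPM in the CS livers and 129, 598, 214, 362 and 236 CPM in the PS livers, with CS 2 lowest in its group and PS 2 highest in its own. For Cidec, Fgf21 and Cpt2, PS 2 was the highest PS liver, but CS 2 was not the lowest CS liver. Cidec had 23.6 CPM in CS 2 against 22.3 in CS 4, and Fgf21 had 31.4 against 30.5 in CS 3. Cpt2 had 334 CPM in CS 2 against 287 in CS 3. Cyp4a10 also shared the pattern of Cyp4a14 only in part, since PS 2 was the highest PS liver but CS 2 had the second highest level of the CS livers.

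Of 11 genes for PPARs, their RXR partners, coactivators and the corepressor Ncor1, 1 was lower and 1 was higher in the PS livers at the unadjusted threshold, and their median was -0.11 (log2 fold change). Ppara averaged 51.6 ± 38.5 CPM (SD, n = 4) under CS and 33.8 ± 13.5 CPM (SD, n = 5) under PS, which did not pass the threshold (log2 fold change -0.61, SE 0.45, unadjusted p of 0.201 in edgeR). Rxra, the usual partner of PPARα, had a log2 fold change of -0.11 (SE 0.22). Rxrb, a related partner, was lower (-0.46, SE 0.14, unadjusted p of 0.00747 in edgeR), and Ppargc1a, a coactivator induced in fasting, was higher (0.79, SE 0.27, unadjusted p of 0.0120 in edgeR).

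The steps around omega-hydroxylation gave a mixed picture. Of 19 tested genes for electron transfer to P450 enzymes, oxidation of the omega-hydroxy acid and peroxisomal shortening, 3 were lower and 2 were higher at the unadjusted threshold, with a median log2 fold change of -0.16. Ehhadh and Acaa1b, both among the lower genes, encode peroxisomal beta-oxidation enzymes and also stand in the PPARα list. The 2 higher genes, Adh1 (0.72, SE 0.20) and Adh4 (0.54, SE 0.20), encode alcohol dehydrogenases, which can oxidize omega-hydroxy acids. Por, the reductase that passes electrons to microsomal P450 enzymes, had 510 ± 187 CPM (SD, n = 4) under CS and 499 ± 100 CPM (SD, n = 5) under PS (log2 fold change -0.03, SE 0.27). Of the other Cyp4 genes, 7 were tested and 1 was lower, Cyp4f17, with a log2 fold change of -0.80 (SE 0.25) at 13.4 ± 3.80 CPM in the CS livers.

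Clock genes moved with the diet groups in the same livers, and several PPARα targets and Cyp4a genes are known to cycle over the day. Of 18 clock and clock output genes, 11 were higher and 4 were lower in the PS livers at the unadjusted threshold (median log2 fold change 0.94). The number of higher genes was 7 without CS 1, CS 4 or PS 1. Over all genes tested, 523 of 13195 were higher with all livers and 370 of 13430 without CS 1. Without CS 4 it was 589 of 13469, and without PS 1 419 of 13042. Bhlhe40, a transcriptional repressor, had a log2 fold change of 1.84 (SE 0.28) and Nr1d1, the repressor REV-ERBα, one of 1.29 (SE 0.23), and the core activators Arntl and Npas2 had -1.57 (SE 0.27) and -1.88 (SE 0.40). Dbp, an output gene with a large daily swing, had 0.828, 26.6, 4.41 and 2.30 CPM in the CS livers and 108, 28.4, 91.4, 37.9 and 112 CPM in the PS livers. CS 2 was the highest CS liver and PS 2 the lowest PS liver, the reverse of Cyp4a14. The hour of tissue collection is not given in the sources used here, and the part of the clock genes in the Cyp4a difference was not tested.

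**Figure D4:**
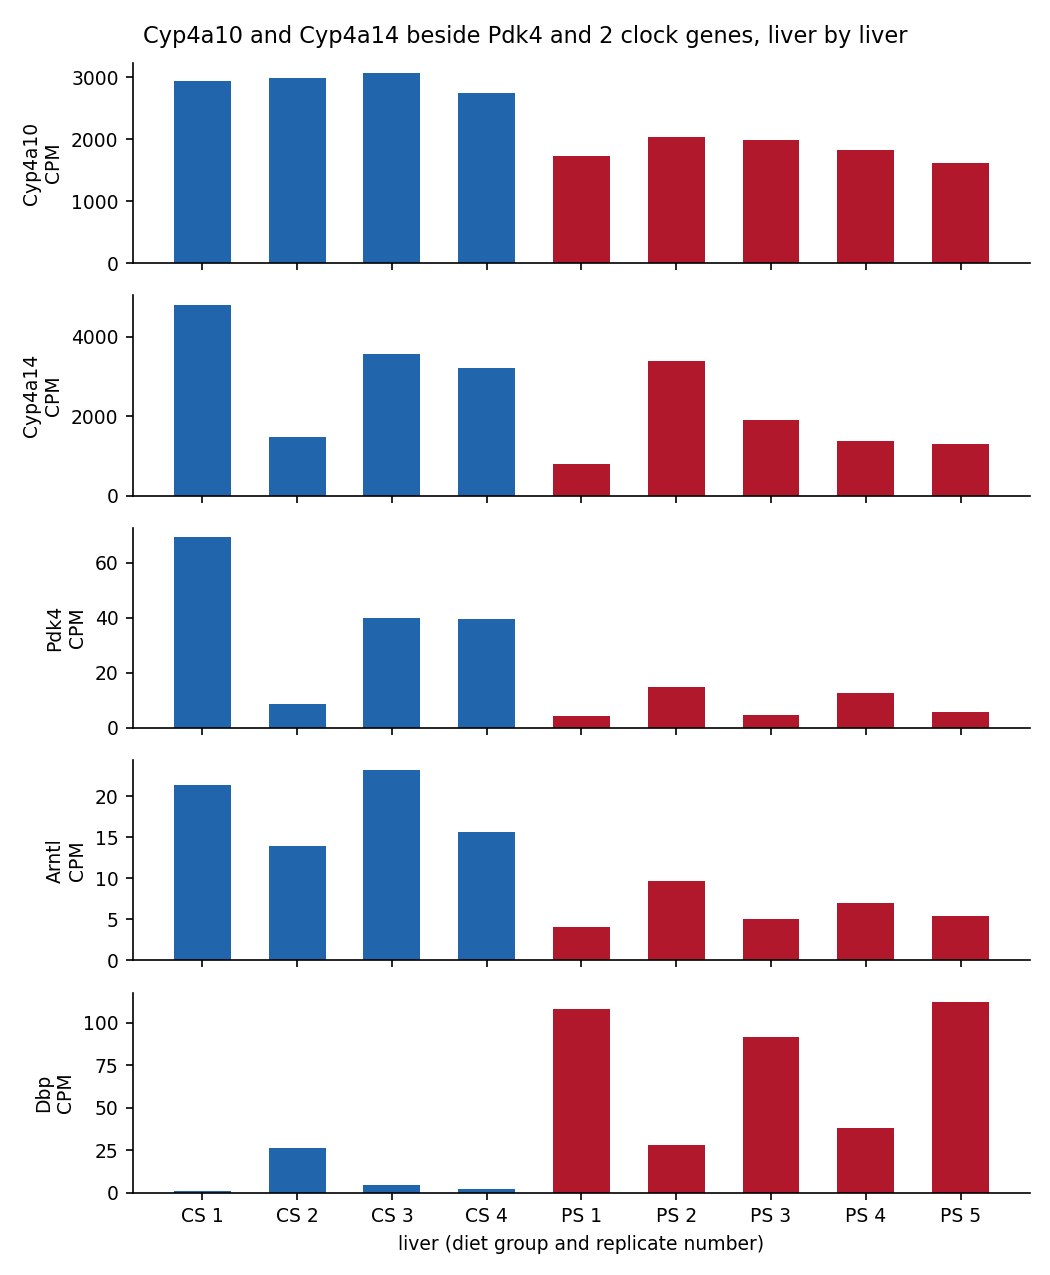
CPM in each liver (CS blue, PS red, 1 bar per mouse) for Cyp4a10, Cyp4a14, the PPARα target Pdk4 and the clock genes Arntl and Dbp; each panel has its own vertical axis from 0. CS 2 is low for Cyp4a14 and Pdk4 and high for Dbp within its group but not low for Cyp4a10, and Arntl is below 10 CPM in all 5 PS livers and above 13 CPM in all 4 CS livers.

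Cell types were compared by marker lists, since in bulk tissue fewer cells of a type and less RNA per cell cannot be told apart. Of 8 hepatocyte markers, 0 were higher or lower at the unadjusted threshold, the median log2 fold change was 0.10, and their summed level ranged from 88631 to 132864 CPM in the CS livers and from 100855 to 140495 CPM in the PS livers. No hepatocyte marker was at 0. Of 6 Kupffer cell markers, the resident macrophages of the liver, 1 was lower (Clec4f, -0.74, SE 0.22) and the median was -0.83, with summed levels of 169 to 231 CPM in the CS group and 51.5 to 186 CPM in the PS group. Of the markers of endothelial cells (6 tested), stellate cells and fibroblasts (5) and cholangiocytes (5), 1 stellate marker was lower (Reln, -0.55, SE 0.20) and 0 were higher, with medians of -0.56, -0.45 and -0.39. The part of these cells in the Cyp4a difference was not tested.

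Over the 9 livers, the genes whose log2(CPM + 1) followed Cyp4a14 most closely, among 10992 genes of at least 1 mean log2 CPM, were Atf5 (Pearson r = 0.984), Mreg (0.964), Ogfr (0.958), Enc1 (0.952) and Psmd3 (0.940). For the Cyp4a10, Cyp4a31 and Cyp4a32 sum they were Zfp672 (0.957), AU022252 (0.948), Ajuba (0.948), Rxrb (0.946) and Dpy19l1 (0.945). For the sum of Cyp4a12a and Cyp4a12b they were Zzz3 (0.949), Cyp2c23 (0.942), Cbfa2t2 (0.910), Tmem50b (0.898) and Ttc39c (0.897). No gene stood in more than 1 of the 3 lists. These are descriptions chosen as the highest of many, over mice that share 2 diet groups, and carry no test.

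In the lungs the family was read at very low levels. The 6 genes together took 0.000144% to 0.00132% of 17934930 to 19396057 counts per lung. Only Cyp4a12b and Cyp4a32 passed edgeR's filter on low counts, and at an adjusted p under 0.05, the threshold used for the lung, 0 of these 2 members were lower in the PS group, against 4.43% of the 16717 genes tested.

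Cyp4a32 was the only member read in every lung. It had 33, 41 and 40 counts in the CS lungs and 16, 21 and 19 counts in the PS lungs. The groups did not overlap, as was so for 18.8% of genes tested in this direction, and the log2 fold change was -0.90 (SE 0.34), with an unadjusted p of 0.0267 and an adjusted p of 0.115 in edgeR. An exact permutation test of 3 against 3 mice cannot give a p below 0.1, and gave that value. In lungs CS 2, CS 3 and PS 1 Cyp4a32 was read while Cyp4a10 and Cyp4a31 had 0 counts, which allows each of them up to 3 counts at this depth.

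Cyp4a10 and Cyp4a14, the abundant liver members, were read mainly in 1 lung. Cyp4a14 had 113, 0 and 0 counts in the CS lungs and 0, 1 and 6 in the PS lungs, and Cyp4a10 had 73, 0 and 0 against 0, 4 and 5. Lung CS 1 was also the lung with the most reads of Alb, the albumin gene made by hepatocytes, at 1177 counts against 6 and 12 in the other CS lungs and 21, 186 and 87 in the PS lungs. Its summed hepatocyte markers were 118 CPM, against 1.59 to 19.4 CPM in the other 5 lungs, and of 5 such markers tested in the lung 0 passed the threshold. Per 100 Alb counts, lung CS 1 held 9.60 counts of Cyp4a14 (95% exact Clopper-Pearson interval 7.84 to 11.7), and the liver of the same mouse held 9.61 (9.54 to 9.68). For Cyp4a10 the values were 6.20 (4.83 to 7.86) in the lung and 5.88 (5.83 to 5.93) in the liver. In this lung both ratios to Alb lay within counting error of that mouse's liver. This comparison is to Alb only, and ratios to the other hepatocyte markers were not computed. Relative to Alb, Apoa1 was read more in lung CS 1 than in that liver, at 390 counts against 206057. Cps1 was read less, at 37 counts against 36608. In lung PS 3 Cyp4a14 stood at 6.90 per 100 Alb counts (2.46 to 15.6, from 6 counts) against 1.66 (1.64 to 1.68) in the liver of its mouse, outside the interval, and in lung PS 2 at 0.538 (0.014 to 3.03, from 1 count) against 2.43. Cyp4a10 stood at 5.75 (1.82 to 13.9) in lung PS 3 against 2.05 in the liver and at 2.15 (0.580 to 5.60) in lung PS 2 against 2.54, both within the interval. The intervals cover counting error only.

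Because of lung CS 1, the Cyp4a10, Cyp4a31 and Cyp4a32 sum had 108, 41 and 40 counts in the CS lungs and 16, 25 and 24 in the PS lungs. Its log2 fold change was -1.40 (SE 0.46, adjusted p of 0.0796 in edgeR and 0.0373 in DESeq2). Without lung CS 1 it was -0.83 (adjusted p of 0.262 in edgeR, the highest of 13 alternatives, of which the lowest was 0.0373).

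Cyp4a12b had 26, 89 and 15 counts in the CS lungs and 40, 0 and 1 in the PS lungs. The groups overlapped through PS 1, and the log2 fold change of -1.48 (SE 1.30, adjusted p of 0.474 in edgeR) had an interval from -4.50 to 1.54. Without PS 1 it was -6.03, with an adjusted p of 0.0237 in edgeR, the lowest of 12 alternatives, which reached 0.887. The PS lungs then held only 0 and 1 counts, so the size of that value is not a measured fold. Cyp4a12a had 9, 0 and 0 counts in the CS lungs against 4, 0 and 0 in the PS lungs. Reads of fat cell genes varied between the same lungs. Adipoq, the adiponectin gene, had 270, 377 and 37 counts in the CS lungs and 216, 0 and 0 in the PS lungs, and Plin1, which coats fat droplets, had 182, 250 and 22 against 141, 1 and 3. Of 6 fat cell markers tested 0 passed the threshold in the lung, their median log2 fold change was -1.43, and they summed to 100, 126 and 26.5 CPM in the CS lungs and 109, 1.67 and 3.86 CPM in the PS lungs. The 4 lungs with more than 1 count of Cyp4a12b were the 4 with reads of Adipoq, while PS 3 had 1 count of Cyp4a12b and 0 of Adipoq. Cidea, on the same list, was read in all 6 lungs, with 118, 97 and 258 counts in CS and 80, 27 and 58 in PS. It was highest in CS 3, the CS lung with the least Cyp4a12b. Retn was also read in every lung, at 95, 134 and 15 counts in CS and 111, 2 and 9 in PS. The part of fat cells and of hepatocyte RNA in the lung values was not tested.

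**Figure D5:**
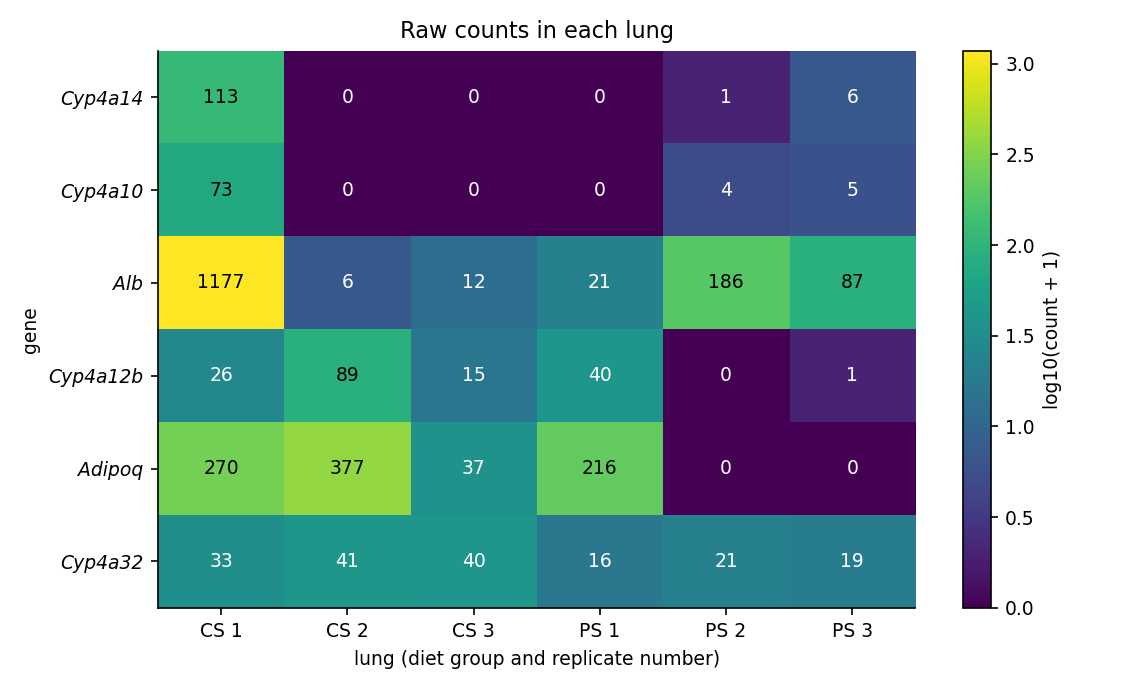
Raw counts of 4 Cyp4a genes, the hepatocyte gene Alb and the fat cell gene Adipoq in each of the 6 lungs, with the count printed in each cell and the colour as log10(count + 1). Cyp4a14 and Cyp4a10 are high in CS 1, where Alb is highest at 1177 counts, and Cyp4a32 is present in all 6. The 4 lungs with more than 1 count of Cyp4a12b are the 4 with reads of Adipoq, a marker picked after its values were seen.

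No member showed a diet effect that differed between the tissues at an adjusted p under 0.05. In a fit over all 15 libraries, the lung minus liver difference of the log2 fold change was -0.25 (SE 0.46, adjusted p of 0.873 in edgeR) for Cyp4a32 and -0.77 (SE 0.45, adjusted p of 0.532) for the sum of the 3 copies. Over the 6 members the adjusted p ran from 0.531 to 0.873. At an adjusted p under 0.05 the fit called 0.0226% of 17696 genes, and the lung side of Cyp4a10, Cyp4a12a, Cyp4a14 and Cyp4a31 rests on few or no reads in most lungs. This fit had no term for the mouse. With the mouse as a block, over the 6 mice with both tissues, the difference was 0.04 for Cyp4a32 and -0.47 for the sum of the 3 copies, and over the members the edgeR adjusted p was 0.893 or more.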

How the data were processed

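RNA was read from liver and lung by poly(A) RNA-seq with a kit that does not mark strand. Per the submitters' processing notes, the authors used HISAT2 2.0.5, featureCounts 1.5.0-p3 and DESeq2 1.20.0 on build mm10 (GRCm38). They deposited raw counts per gene. The authors also deposited FPKM values, used here for levels between genes. Whether reads that fit several genes were counted is not given in the sources used here.

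The counts were scaled by TMM, filtered by filterByExpr and tested with edgeR 4.0.16 (robust quasi-likelihood, R 4.3.3), with Benjamini-Hochberg adjustment over all genes tested. Sums of near-identical copies replaced those copies in a separate fit of the whole table. DESeq2 1.42.0, limma 3.58.1 on log2(FPKM + 1) and log2(FPKM + 0.1), other filters, a replicate block and the omission of each library were alternatives. The fits were tested on simulated data. With 3 to 5 mice a group, small differences could be missed. The p-values of the fits set the difference between the diet groups against the spread between mice. They do not cover anything else that all mice of a group shared.

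The named genes are the 6 members, up to 4 genes per list with the smallest p, the genes Ppara, Rxra and Por, and the 5 genes most like Cyp4a14 and each sum. Dbp, Alb, Apoa1, Cps1, Adipoq, Plin1, Cidea and Retn were named after their values were seen. Single values of 1 listed gene are not reported here. The members and lists were chosen with earlier results of these data known. Identity, shared windows and exon overlaps were computed from GENCODE M21 transcripts. Of the members, 1 had an entry in the RefSeq promoter table, and no promoter is shown.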

Additional observations from a re-analysis of the deposited data

How the results depend on the processing

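Cyp4a10 and the Cyp4a10, Cyp4a31 and Cyp4a32 sum stayed lower in the PS livers at an unadjusted p of at most 0.05 in all 16 alternatives, with log2 fold changes from -0.71 to -0.63 and from -0.72 to -0.63. The number of members lower at that threshold was 3, 1 under the replicate block, 2 with limma at either pseudocount, 4 with DESeq2 or no filter, and 2 to 4 with each liver left out. Equal replicate numbers did not pair the livers (correlations of deviations -0.44, -0.35, -0.41 and -0.02) or the lungs (0.05, -0.01 and 0.08), so the paired fit shares only a number. At an adjusted p under 0.05 the number was 0 in edgeR, 1 in DESeq2 and 0 to 1 when each liver was left out. Counts with each liver left out, a check chosen after seeing the data, ran from 6 to 16 for lower PPARα targets, from 0 to 1 for higher ones, from 7 to 11 for higher clock genes, from 3 to 4 for lower clock genes and, with each lung left out, from 0 to 9 for lower PPARα targets in the lung. For the lung counts no share of all genes in the same fits is given. The sign of Cyp4a12a was not fixed: -0.019 with limma on log2(FPKM + 1), -0.021 on log2(FPKM + 0.1), -0.11 under the replicate block, and -0.14 to 0.32 with each liver left out. The Cyp4a12a and Cyp4a12b sum ran from -0.22 to 0.21. In the lung the sum of the 3 copies passed the adjusted threshold with DESeq2 (-1.42) and without a filter (-1.41), and ran from -1.65 to -0.83 with each lung left out. The lung sum of Cyp4a12a and Cyp4a12b ran from -6.13 to -0.57 with each lung left out, and without lung PS 1 its PS lungs held only 0 and 1 counts. On log2(FPKM + 1), which shrinks changes of low genes, limma gave -0.67 for the lung sum of the 3 copies, -0.44 for lung Cyp4a32 and -0.55 for the lung sum of Cyp4a12a and Cyp4a12b. Without lung CS 1 the lung minus liver difference turned positive for Cyp4a10 (4.57), Cyp4a12a (2.78), Cyp4a14 (4.45) and Cyp4a31 (0.83). Each of these genes had 0 counts in lungs CS 2 and CS 3, and Cyp4a31 had 0 in every remaining lung. These signs and sizes were thus set by counts of 0 and say nothing on the diets. The ranges over left-out libraries began at -2.75, -3.95, -4.70 and -1.62. With the mouse as the replicate block the difference of Cyp4a32 was 0.037. With at least 10 counts in every library several lung values could not be computed, and DESeq2 and limma were not run for the tissue difference. The causes of these changes were not tested. The lung values rest on few reads per gene.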

Other observations

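Genes with a sex bias in mouse liver were examined because the Cyp4a12 genes are known as male-biased. Of 7 other male-biased genes tested, 2 were lower in the PS livers at an unadjusted edgeR p of at most 0.05 and 0 were higher, and the list had a median log2 fold change of -0.53 beside -0.02 for the Cyp4a12 sum. Elovl3, a fatty acid elongase, had a log2 fold change of -1.53 (SE 0.44), and Cyp7b1, an oxysterol hydroxylase, had -1.46 (SE 0.58). Of 10 female-biased genes 3 were tested, and 0 passed the threshold, with a median of 0.79, and livers CS 2, PS 2 and PS 3 stood apart in the summed level of this list. Zonation markers gave 1 lower gene of 10 tested among pericentral genes (Axin2, -0.54) and 1 of 10 among periportal genes (Hal, -0.51), with medians of 0.07 and -0.01.

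In the lung, 4 of 36 tested PPARα targets were lower at an adjusted edgeR p under 0.05 and 0 were higher, where 4.43% of all lung genes tested were lower. The median log2 fold change of the list was -0.33 there, against 0.01 over all genes. The 4 genes were Acadvl (-1.64, SE 0.31), Hsd17b4 (-0.68, SE 0.14), Acsl1 (-0.98, SE 0.22) and Decr1 (-0.62, SE 0.14), all enzymes of fatty acid activation or oxidation. The count changed with single lungs, with 0 without CS 1, CS 2, CS 3 or PS 2, 9 without PS 1 and 6 without PS 3, all in edgeR. The share of all lung genes called in these fits is not given here. The changes therefore cannot be read as particular to the targets. Ppara itself was also lower in the PS lungs (-2.00, SE 0.41, adjusted p of 0.0312 in edgeR). It was read at a low level, with 48, 44 and 52 counts in the CS lungs and 7, 9 and 17 in the PS lungs.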
